A study of Physcomitrium patens with 10 samples.

Results

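ppt-miR1052, ppt-miR1050 and ppt-miR1065, here miR1052, miR1050 and miR1065, are microRNAs of the moss Physcomitrium patens that stood lower in rewetted than in desiccated leafy shoots (gametophores), though for miR1065 at partial rehydration the direction depended on how the states were scaled. They were chosen by family number from 280 mature miRNA names, and each family is represented by 1 name, so the set holds 3 names. The values that led to the choice were their levels in the desiccated and the rewetted states, which are therefore given below as a description. The study sequenced small RNAs of gametophores grown on BCD medium: hydrated shoots (HD), shoots after moderate (MDH) and after severe dehydration (SDH, the desiccated state), and shoots rehydrated partially (PRE) or fully (FRE) after drying. Sample titles give 2 replicates for each of these 5 states, 10 samples in all, but for 7 samples the treatment field names another state than the title. The labels name no strain, age, water content or time for any state. The tables analysed hold 1 authors' value per state in RPM (reads per 1000000). How the 2 replicates entered that value and the library depths are not given.

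No replicate spread could therefore be computed, the differences below were not checked against replicates, and neighbouring levels in an order of states cannot be told apart or shown to be alike. In these whole shoots a lower level in fewer cells and a lower level per cell cannot be told apart. A name is called higher or lower here where log2((RPM + 1)/(RPM + 1)) reached 2-fold, among names with at least 3 RPM in the higher of the 2 states. The RPM summed over all names ranged from 407334 in PRE to 831487 in HD, with 629248 in SDH. Values rescaled to equal sums are therefore given beside many of the results that they change, but not beside all. The miR535 names made up 57.9% of the sum in HD, 46.8% in SDH and 44.7% in PRE, so equal sums weigh that family heavily. The other rescalings were equal sums without miR535 and median of ratios. In PRE against HD the median log2 fold change of all names moved by 0.99 with equal sums. It moved by 0.61 without miR535 and by 0.10 with median of ratios. Shares of all names at least 2-fold higher or lower are as deposited unless equal sums are named. Several of these shares change with equal sums. In MDH against HD, 23 higher and 51 lower names became 60 and 31. The recounts that moved most are given in the last section.

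Plant miRNAs are cut from hairpin precursors by DICER-LIKE enzymes and loaded into ARGONAUTE proteins, where they guide the cleavage of matching mRNAs. A small set of families is shared by mosses and flowering plants and acts largely on developmental regulators. Mosses have in addition many families of their own, often with a single locus and low expression, and miR1052, miR1050 and miR1065 carry numbers from that series. Moss leaves are mostly a single cell layer thick and follow the water content of their surroundings, so drying and rewetting reach most of their cells directly.

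miR1052 was the member already high at moderate dehydration. It stood at 352 RPM in the hydrated state, at 2041 RPM in MDH and 1794 RPM in SDH on drying, and at 412 RPM in PRE and 925 RPM in FRE on rewetting. The dried states stood above the other states. As deposited PRE lay near HD and FRE lay between, whereas with equal sums PRE was 2.39-fold above HD. Under the other rescalings PRE was within 2-fold of HD. From the hydrated to the moderately dried state the level was 5.8-fold higher (log2 fold change 2.53), which placed it at rank 7 from the top of 209 names tested, of which 11.0% were at least 2-fold higher and 24.4% lower by as much. Among all 280 names its rank by level went from 74 in HD to 25 in MDH and 30 in SDH, then to 73 in PRE and 50 in FRE.

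miR1050 was highest in the desiccated state. Its level was 299 RPM in hydrated shoots, 268 RPM in MDH, 1098 RPM in SDH, 355.5 RPM in PRE and 278 RPM in FRE. As deposited the 4 other states spanned 268 to 355.5 RPM, and SDH lay 3.09-fold above the highest of them, PRE. With equal sums SDH was just under 2-fold above PRE, and PRE was 2.43-fold above HD. Under the other rescalings SDH stayed over 2-fold above PRE, and PRE stayed within 2-fold of HD. The step from moderate to severe dehydration was 4.1-fold (log2 fold change 2.03), rank 7 from the top of 207 names, of which 16.4% were at least 2-fold higher and 0.966% lower by as much. Over that step miR1052 differed little as deposited (log2 fold change -0.19), around a median of 0.39 over all names. Under the rescalings it came to -0.46 to -0.57, and miR1050 to 1.65 to 1.75. In these single values the 2 names were thus first high at different degrees of drying.

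miR1065 varied least of the 3 and was lowest after full rehydration. It had 247.4 RPM when hydrated, 170.9 RPM in MDH, 331 RPM in SDH, 246.5 RPM in PRE and 117 RPM in FRE. As deposited HD and PRE were within 1 RPM of each other, SDH was 1.34-fold above both, and FRE was 2.12-fold below HD. With equal sums PRE was 2.03-fold above HD, and the SDH level was 0.869 of that in PRE. FRE against HD then came within 2-fold, at a log2 fold change of -0.54. Under the other rescalings PRE stayed within 2-fold of HD. Its highest and lowest states differed 2.83-fold, against 5.8-fold for miR1052 and 4.1-fold for miR1050. Among 188 names with at least 10 RPM in their highest state the median log2 span between highest and lowest state was 1.24. The spans of the members were 2.53 for miR1052, 2.03 for miR1050 and 1.49 for miR1065, and 29, 41 and 60 of the 188 names spanned more than them, in that order.

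**Figure D1:**
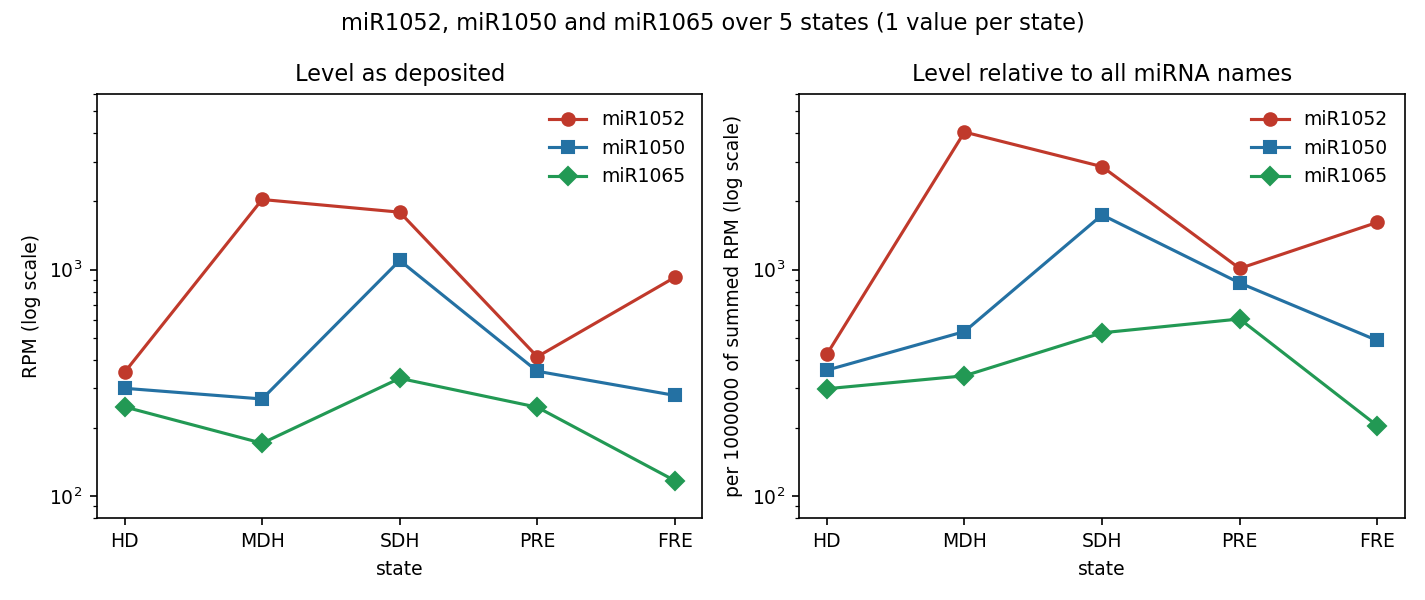
Level of miR1052, miR1050 and miR1065 in the hydrated (HD), moderately (MDH) and severely dehydrated (SDH) and partially (PRE) and fully rehydrated (FRE) state, on log axes, with 1 authors' value per point and no error. On the left, in RPM, miR1052 is high in MDH and SDH, miR1050 is highest in SDH, and miR1065 is lowest in FRE; on the right, per 1000000 of the RPM summed over all 280 names, miR1065 is higher in PRE (605) than in SDH (526).

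Desiccated shoots were set against hydrated ones to ask how the members stood at the end of drying. miR1052 was 5.1-fold and miR1050 3.67-fold higher, at log2 fold changes of 2.35 and 1.87 and ranks 7 and 12 from the top of 215 names. The SDH values were among those that led to the choice. These ranks, and that of miR1050 in SDH against MDH, are therefore a description. miR1065 stayed within 2-fold, at 0.42. Of all names tested 18.6% were at least 2-fold higher and 13.5% lower by as much, with a median of 0.02. At moderate dehydration miR1050 and miR1065 were both within 2-fold of HD, at -0.16 and -0.53, around a median of -0.37 over all names, and at 0.56 and 0.19 with equal sums.

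Other moss families with numbers from miR1022 to miR1079 held 110 names, the members left out. At moderate dehydration 64 of them could be tested, and 3 of them passed 2-fold higher and 26 lower than in HD (median log2 fold change -0.83). In SDH 6 of 67 were higher and 20 lower (median -0.15). The conserved families of land plants had 65 tested names, with 7 higher and 10 lower in MDH (median -0.37), and 9 were higher and 4 lower in SDH (median -0.17). With equal sums the moss names stood at 8 higher and 24 lower in MDH (median -0.11) and 10 and 14 in SDH (median 0.25), and the conserved names at 18 and 3 in MDH (median 0.35) and 10 and 3 in SDH (median 0.22). Apart from the moss median in MDH, the sign of these medians thus depended on the scaling. They are descriptions, and nothing particular to a list was tested.

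Rewetting was examined by setting the partially rehydrated against the desiccated state. The members were picked as lower after rewetting than in SDH. Their low places here and in FRE against SDH therefore follow in part from that choice. As deposited miR1052 and miR1050 had the lowest and the second lowest log2 fold changes of 211 names tested, -2.12 and -1.62. With equal sums they came to -1.49 and -0.998, the latter just short of 2-fold. As deposited their levels were 4.35-fold and 3.09-fold lower in PRE than in SDH, and with equal sums 2.82-fold and 1.999-fold lower. miR1065 was 1.34-fold lower (log2 fold change -0.42), at rank 62 from the bottom and within 2-fold, and came out higher in PRE (0.20) when the states were scaled to equal summed RPM. Of all names tested 3.32% were at least 2-fold lower and 6.16% higher by as much, around a median of -0.18, and the counts of 7 lower and 13 higher names became 2 and 51 with equal sums. The difference between SDH and HD was 1442 RPM for miR1052 as deposited, and 95.8% of it was gone in PRE. For miR1050 that share was 92.9% of 799 RPM, and for miR1065 it was 101% of 83.4 RPM. With equal sums these shares were 75.8% for miR1052, 62.9% for miR1050 and -34.8% for miR1065, whose PRE level was then above its SDH level.

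After full rehydration all 3 members were again lower than in SDH, by different amounts. Against SDH, miR1050 was 3.95-fold lower (log2 fold change -1.98, rank 2 from the bottom of 214 names) and miR1065 2.83-fold lower (-1.49, rank 3). miR1052 was 1.94-fold lower (-0.96, rank 20), just within 2-fold. Of all names tested 7.01% were at least 2-fold lower and 15.0% higher by as much, with a median of -0.19. Both rewetted states entered the choice of the members, and both comparisons share the desiccated values. The PRE and FRE results for a member are therefore a description and not separate evidence of a fall.

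A level below SDH in both rewetted states was common in the tables as deposited. Of 209 names tested in both, 96 were lower by any size in both, which is 45.9%. At least 2-fold lower in both were 3 names, or 1.44%, and miR1050 was the member among them. The other two, named after their values were seen, were miR390a and miR390b, of the family that triggers small interfering RNAs from TAS3 transcripts. miR1052 passed 2-fold in PRE and not in FRE, and miR1065 passed it in FRE and not in PRE. With equal sums 32 of 211 names were lower in both by any size (15.2%), and 0 names were at least 2-fold lower in both. miR1050 then fell just short of 2-fold in PRE, at -0.998. It stayed at least 2-fold lower in PRE and FRE with median-of-ratios scaling (-1.48 and -1.83). The same held with miR535 left out of the sums (-1.05 and -1.59). The count over all names was not made under these other rescalings.

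Between partial and full rehydration miR1052 was 2.24-fold higher in FRE (log2 fold change 1.16), rank 10 from the top of 214 names, and within 2-fold (0.68) with equal summed RPM. miR1065 was 2.11-fold lower (-1.07), rank 17 from the bottom. miR1050 was 1.28-fold lower (-0.35) and within 2-fold. Of all names tested 7.01% were at least 2-fold higher and 9.81% lower by as much. With equal sums miR1065 came to -1.56 and miR1050 to -0.84. The counts of 15 higher and 21 lower names then became 5 and 54. For miR1052, 60.3% of the SDH excess over HD was gone in FRE, less than in PRE, and 50.8% with equal sums.

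**Figure D2:**
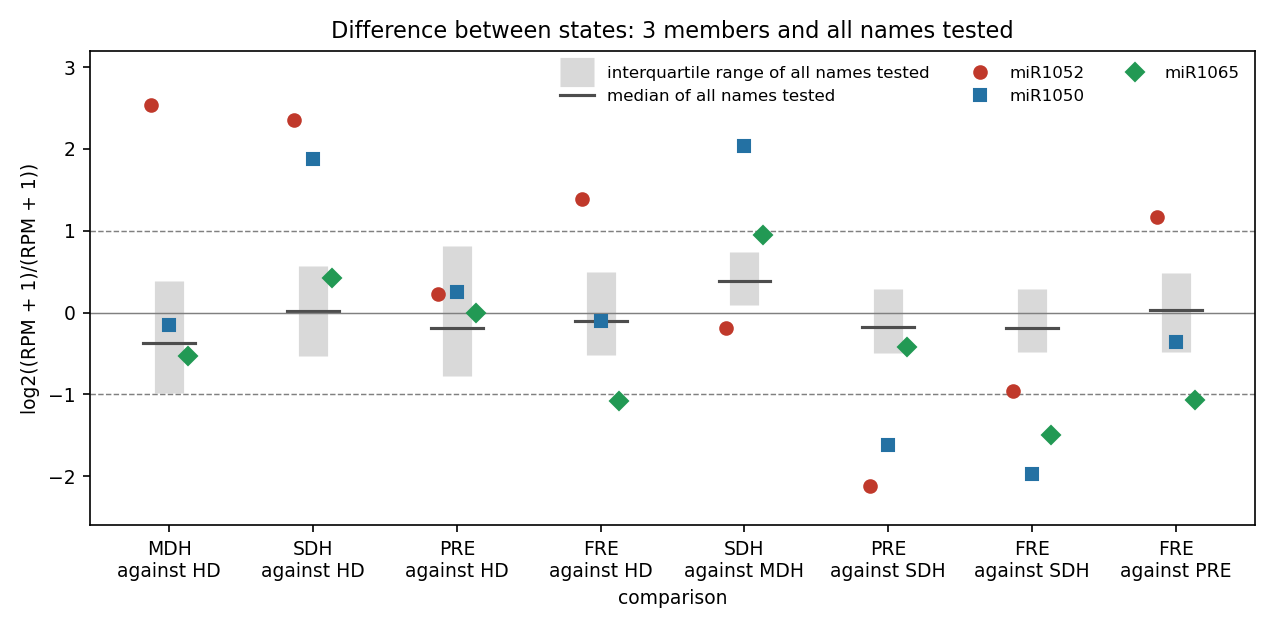
Log2((RPM + 1)/(RPM + 1)) of miR1052, miR1050 and miR1065 in 8 comparisons of states, with the median (line) and the interquartile range (grey bar) of all names tested; dashed lines mark 2-fold. miR1052 and miR1050 lie far below the grey bar in PRE against SDH, and in FRE against PRE miR1052 lies above it (1.16) and miR1065 below it (-1.07).

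The rewetted states were also set against hydrated shoots. In PRE all 3 names were within 2-fold of HD as deposited, at log2 fold changes of 0.23 for miR1052, 0.25 for miR1050 and -0.01 for miR1065, while 21.6% of 213 names tested were at least 2-fold higher and 18.8% lower by as much. With equal sums all 3 passed 2-fold higher, at 1.25 for miR1052, 1.28 for miR1050 and 1.02 for miR1065, and the counts of all names went from 46 higher and 40 lower to 96 and 8. Under the other rescalings all 3 stayed within 2-fold of HD. In the same order they came to 0.86, 0.88 and 0.63 with miR535 left out of the sums. With median-of-ratios scaling they came to 0.34, 0.36 and 0.11. In FRE the members differed from each other. miR1052 was 2.63-fold above HD (1.39, rank 12 from the top of 209 names), and miR1065 was 2.12-fold below it (-1.08, rank 24 from the bottom), which came within 2-fold under each rescaling (-0.54 to -0.96). miR1050, at -0.10 as deposited and 0.43 with equal sums, had the median log2 fold change of all names tested in the deposited values. Of these, 15.3% were at least 2-fold higher and 12.0% lower by as much.

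The ratio of 2 members within a state does not depend on the scaling of that state. miR1052 stood at 1.42 times miR1065 in HD, at 11.9 and 5.42 times in MDH and SDH, and at 1.67 and 7.92 times in PRE and FRE. Of the other states PRE had the ratio nearest to that of HD. The ratio of miR1050 to miR1065 was 1.21 in HD, 1.57 and 3.32 in the dried states MDH and SDH, and 1.44 and 2.38 in the rewetted states PRE and FRE. That of miR1052 to miR1050 was 1.18 in HD and 1.16 in PRE, but 7.61 in MDH, 1.63 in SDH and 3.33 in FRE. Small RNAs differ in how well adaptors join them and PCR amplifies them, so the size of such a ratio in 1 state says less than its difference between states.

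Profiles of log2(RPM + 1) over the 5 states, each centred on its own mean, were compared with those of 187 other names by their root mean square difference. The members were not one another's nearest names. miR1052 differed from miR1050 by 1.04 log2 units and from miR1065 by 1.22. The median difference of all names was 1.18 from miR1052, 0.804 from miR1050 and 0.59 from miR1065, so miR1052 was farther from each of the other two than their median name was. miR1050 and miR1065 differed by 0.529, rank 6 of 187 names seen from miR1050 and rank 60 seen from miR1065. Over only 5 values, shared normalization included, such likeness is a description.

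Nearest to miR1052 was miR902h-3p (0.567), with 17.7 RPM in HD, 45.3 and 82.1 RPM in MDH and SDH, and 30.0 and 46.9 RPM in PRE and FRE. Next came miR902h-5p (0.621) and miR902i-5p (0.623), scarce names of the same family with nearly equal values to each other. As deposited these names, like miR1052, were lowest in HD and higher in FRE than in PRE. With equal sums miR902h-5p and miR902i-5p were no longer higher in FRE than in PRE, whereas miR1052 still was. Nearest to miR1050 were miR1216 (0.43), miR1223a (0.436) and miR1223b (0.462). miR1223a had 407 RPM in HD, 249.9 and 623 RPM in MDH and SDH, and 399.6 and 324 RPM in PRE and FRE, so its SDH level was also its highest, by a smaller margin than that of miR1050. For miR1065 the nearest were miR1211* (0.297), miR1223a (0.321) and miR902j-3p (0.325), and miR1211* differed from it in being highest in HD, at 1502 RPM.

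**Figure D3:**
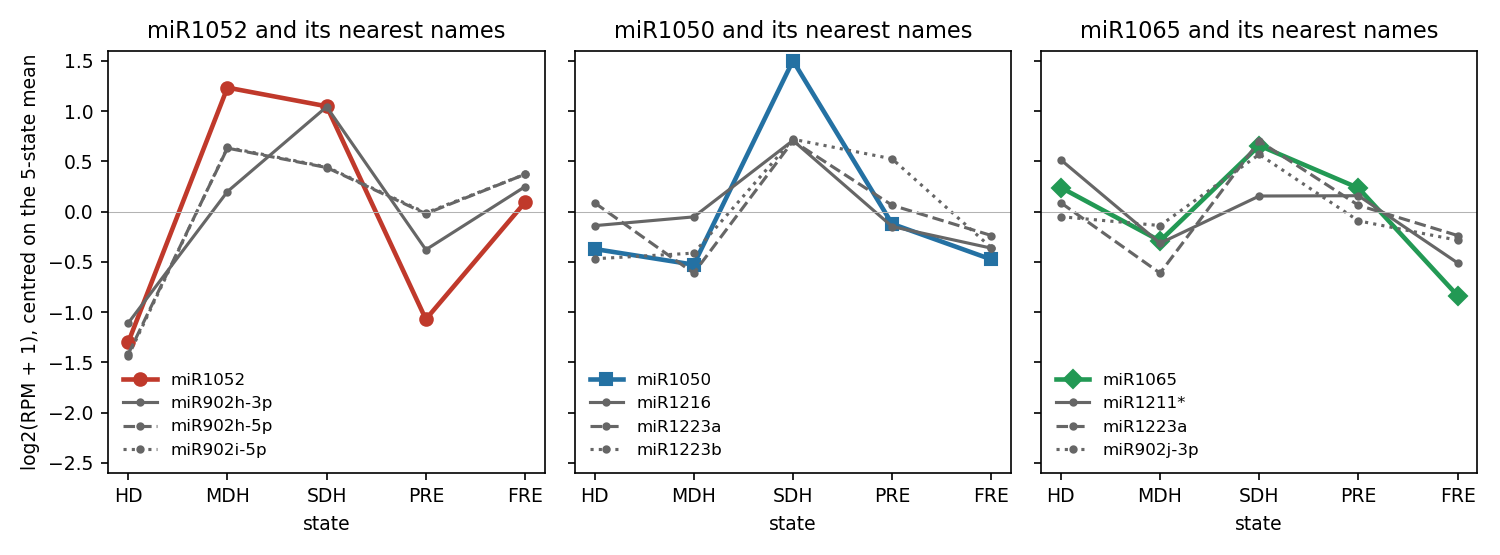
Log2(RPM + 1) over the 5 states, each name centred on its own mean, for each member (coloured) and the 3 names of smallest root mean square difference to it (grey). miR1050 has a higher SDH point than miR1216, miR1223a and miR1223b, and miR1052 a lower PRE point than the miR902 names drawn with it.

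How the states were scaled against each other bears on these levels. The summed RPM of PRE was 0.647 of that of SDH. The 3 members together held 0.108% of the summed RPM in HD, 0.492% and 0.512% in MDH and SDH, and 0.249% and 0.231% in PRE and FRE. Rescaled to equal sums, the median log2 fold change of all names in PRE against SDH moved by 0.60, from -0.18 to 0.42. Relative to the median of all names tested, the deposited differences were -1.94 for miR1052, -1.44 for miR1050 and -0.24 for miR1065 in PRE against SDH, and -0.77, -1.79 and -1.30 in FRE against SDH. In FRE against SDH all 3 kept their direction and their side of 2-fold under every scaling tried. The part of the scaling in these results was not tested.

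**Figure D4:**
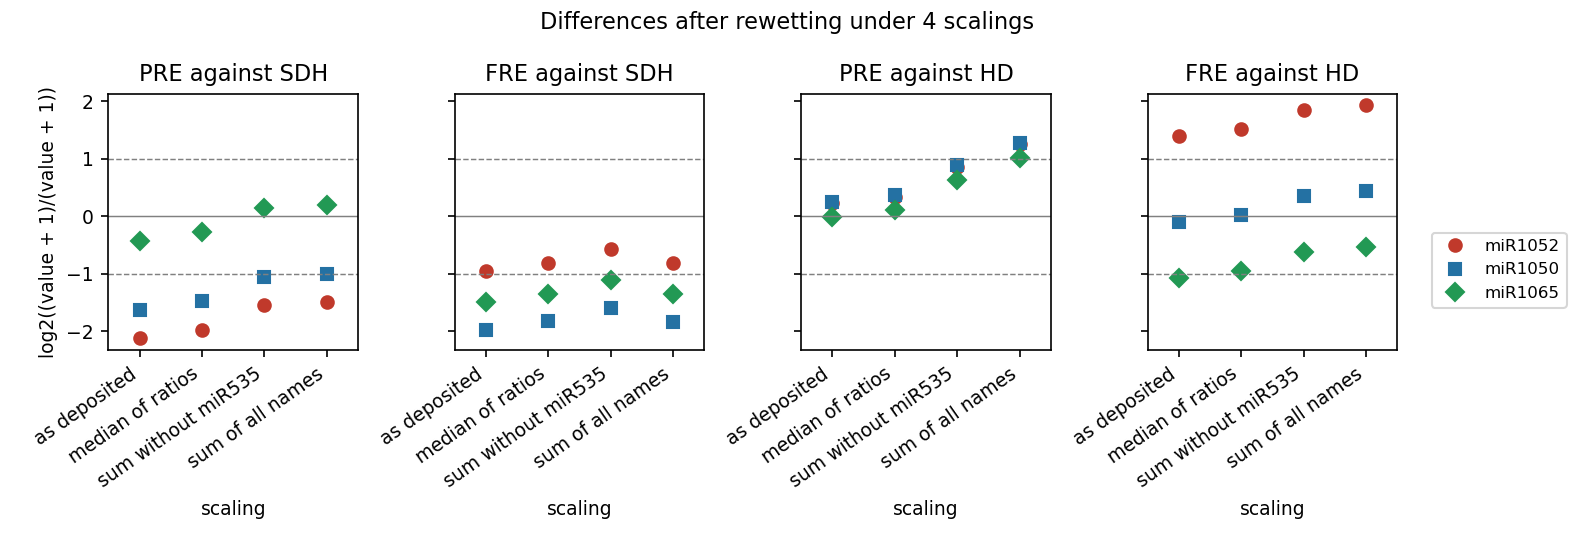
Log2 difference of miR1052, miR1050 and miR1065 in PRE and FRE against SDH and against HD under 4 scalings of the states: as deposited, median of ratios, equal sums without the miR535 names and equal sums of all names; dashed lines mark 2-fold. miR1065 in PRE against SDH crosses 0 under both equal-sum scalings, and in PRE against HD all 3 names lie above 2-fold with equal sums of all names.

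The authors' deposited table of each comparison with HD gives a p-value and a mark. miR1052 was marked in MDH, SDH and FRE in the authors' deposited table, miR1050 in SDH, and miR1065 in FRE. All 934 p-values in the authors' deposited table equal, within 0.1%, a two-sided Audic-Claverie comparison of whole numbers that are 10 times the RPM, with a nominal total of 10000000 in every state. They therefore treat scaled values as reads and hold no spread between replicates. In the authors' deposited table miR1050 in MDH, 1.11-fold below HD, had a p of 4.3e-05, and miR1065 in SDH, 1.34-fold above HD, had a p of 4.46e-28. miR1065 in PRE had a p of 0.898 in the authors' deposited table. No difference was called from these p-values here.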

How the data were processed

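Small RNAs of 18 to 30 nt were ligated to adaptors, reverse transcribed, amplified by PCR and sequenced, per the labels' protocols. Not given in the sources used here are the aligner, the reference, the treatment of shared reads, and whether and how replicates were combined. The 4 deposited level tables hold RPM in steps of 0.1, with 1 value per state. They were joined by miRNA name and share identical HD values. The 4 comparison tables of the authors hold, per the file headers, a total and an expressed value per state, used here as a score because it is 10 times the RPM against a total of 10000000. They also hold the authors' log2 fold change and the authors' p-value. In them an RPM of 0 is written as 0.01. Depth is unknown, so no interval or floor is given.

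Groups follow the sample titles, with replicate numbers 2 and 3 in each group. The members and the lists were chosen with earlier results of these data known. Log2((RPM + 1)/(RPM + 1)) was computed for 8 comparisons over all names (Python 3.11.15, pandas 2.3.3, numpy 2.4.6), and names at 2-fold were counted among those with at least 3 RPM in the higher state. Printed folds are plain ratios of RPM. The count test foreseen for single libraries was not used, since each state has 1 value. Named beside the members are the 3 names nearest to each in profile, among names with at least 10 RPM in their highest state, identical values counting as 1. The conserved list held miR536, miR535, miR529, miR477, miR408, miR395, miR390, miR319, miR171, miR167, miR166, miR160 and miR156. The code was tested on simulated data. Alternatives were pseudocounts of 0.1 and 10 RPM, no minimum or 10 RPM, median-of-ratios scaling, equal summed RPM with and without miR535, and near-identical copies (within 5% or 0.5 RPM in all states) counted once. None of the 3 members has such a copy. Recomputing the list medians, the return shares and the count of names lower in both rewetted states with equal sums was chosen after seeing the data. The Audic-Claverie p-values were computed with scipy 1.17.1.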

Additional observations from a re-analysis of the deposited data

How the results depend on the processing

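Of 120 recomputed log2 fold changes of the 3 members, 100 kept their direction and their side of 2-fold, and no called difference turned its sign. The pseudocounts changed no member's call, so each change below came with a rescaling of the states, and its cause was not tested beyond that. No paired analysis was possible because each state has 1 value, and for the same reason no replicate could be left out. With equal summed RPM, miR1052 came to 1.25 in PRE against HD and 0.68 in FRE against PRE. miR1050 came to 0.56 in MDH, 1.28 in PRE and 0.43 in FRE against HD, and to -0.998 in PRE against SDH. miR1065 came to 0.19 in MDH, 1.02 in PRE and -0.54 in FRE against HD, and to 0.20 in PRE against SDH. With the miR535 names left out of the sums, miR1052 came to 0.98 in FRE against PRE, miR1050 to 0.18 in MDH and 0.35 in FRE against HD, and miR1065 to 0.63 in PRE and -0.62 in FRE against HD and 0.15 in PRE against SDH. With median-of-ratios scaling, miR1050 came to 0.19 in MDH and 0.016 in FRE against HD, and miR1065 to 0.11 in PRE and -0.96 in FRE against HD.

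Of 112 recounts of all names past 2-fold, 30 differed by over 1.5 times from the main counts, which were, higher and lower, 23 and 51 in MDH, 40 and 29 in SDH, 46 and 40 in PRE and 32 and 25 in FRE against HD, 34 and 2 in SDH against MDH, 13 and 7 in PRE and 32 and 15 in FRE against SDH, and 15 and 21 in FRE against PRE. With equal summed RPM they became 60 and 31 in MDH, 96 and 8 in PRE and 53 and 12 in FRE against HD, 18 and 8 in SDH against MDH, 51 and 2 in PRE against SDH, 7 lower in FRE against SDH, and 5 and 54 in FRE against PRE. A pseudocount of 10 RPM gave 13 higher in MDH and 21 higher in SDH, 25 higher in PRE and 11 higher in FRE against HD, 18 and 0 in SDH against MDH, 7 higher in PRE against SDH, 10 and 6 in FRE against SDH and 8 higher in FRE against PRE. Median-of-ratios scaling gave 14 and 8 in SDH against MDH and 6 lower in FRE against SDH. Copies counted once gave 27 higher in PRE and 21 in FRE against HD. The 2 lower names in SDH against MDH were 5 with a pseudocount of 0.1 RPM and 1 with a minimum of 10 RPM.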
